A study of Mus musculus with 24 samples.

Results

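The Meis and Pbx genes encode homeodomain proteins of the TALE class, which carry a short insertion in the homeodomain and bind DNA together with Hox proteins. Pbx proteins form dimers with Hox or Meis proteins, and Meis proteins help to keep Pbx proteins in the nucleus and join the complexes at regulatory elements. In the embryo these cofactors are known for their part in hindbrain and limb patterning and in neural development, and retinoic acid is a known inducer of Meis genes in embryonal carcinoma cells.

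The 5 members Meis1, Meis2, Meis3, Pbx2 and Pbx3 were listed by name and were looked up in the RNAseq tables, where all 5 of the 21909 symbols occurred. RNA had been sequenced from 3 samples of mouse embryonic stem cells (ESCs) and 3 samples of neural progenitor cells (NPCs), taken per the labels from separate culture dishes of the E14 line. ESCs grew without feeder cells in 2i medium, which holds LIF and inhibitors of MEK and GSK3β. NPCs were derived from ESCs through embryoid bodies within 8 days, with 2 µM retinoic acid in the last 4 days, and were collected as a whole culture without a sort. Pbx4 belongs to a list of other TALE genes and is described beside the members.

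Levels were deposited as RPKM, in which reads are divided by a gene length and by the size of the library. The length behind these values was the span of the gene including introns: with the end minus the start of each GENCODE M21 gene, the values of 93.2% of 18024 genes gave whole reads in all 6 samples, within a tolerance of at most 0.1 reads. The same step gave the library sizes, which were 34051992, 33732018 and 30779728 reads in ESC replicates 1 to 3 and 30151252, 27262786 and 32297555 reads in NPC replicates 1 to 3. Division by the span leaves a comparison of one gene between samples as it is, but lowers the level of a gene with long introns against a gene with short ones. The span was 33.0 times the joined exons for Pbx3, 16.8 times for Meis2, 13.2 times for Meis1, 3.60 times for Meis3 and 1.69 times for Pbx2. Orders of genes by level are therefore given as RPKM over the length of the joined exons in place of the span, a scale chosen after seeing the data and called the exon scale here. Sums over a gene list are of deposited RPKM unless this scale is named, so they do not serve to compare lists. Genes with long introns weigh less in them, so the size of a difference between samples depends on the scale too.

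ESC replicate 3 stood apart from the other ESC samples. Its RPKM values summed to 141243, against 105011 and 106892 in ESC replicates 1 and 2 and 86130 to 87367 in the NPC samples. Over the genes tested, its log2(RPKM + 1) values correlated with those of ESC replicates 1 and 2 at 0.963 and 0.966, and ESC replicates 1 and 2 correlated with each other at 0.999. The log2 differences of the members are given with and without this sample, their other values with it only.

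The labels of the cultures were set against fixed markers. The 6 pluripotency markers were all lower in NPCs, and their summed RPKM was 348, 352 and 386 in ESC samples and 2.16, 2.09 and 2.21 in NPC samples, with Pou5f1, the central factor of pluripotency, at 275, 287 and 427 in ESCs on the exon scale. Nanog was at 321, 315 and 302 there, so Pou5f1 was above it in ESC replicate 3 only. On the same scale Esrrb was at 131, 135 and 77.3 in ESCs, Klf4 at 87.0, 87.8 and 58.0 and Tfcp2l1 at 140, 139 and 54.1. Like Nanog, these were lowest in ESC replicate 3, whereas Zfp42, at 249, 247 and 280, was highest there. The sums on the exon scale were 1203, 1212 and 1199 in ESCs and 4.42, 4.11 and 4.28 in NPCs. Of these 6 markers, 5 passed the filter described below through ESC samples only. The 6 neural progenitor markers summed to 4.29, 3.77 and 3.68 RPKM in ESC samples and to 36.1, 40.3 and 37.6 in NPC samples. Among them Nes, an intermediate filament gene of progenitors, held most of these sums, with a mean of 30.6 RPKM in NPCs (44.7 on the exon scale). Pax6 was found at 1.55, 1.42 and 1.67 RPKM in NPCs and at 0.0134, 0.0167 and 0.00457 in ESCs.

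Each of the members was higher in every NPC sample than in every ESC sample. The test was limma on log2(RPKM + 1), adjusted by the Benjamini-Hochberg method over the 7757 genes with at least 1 RPKM in at least 3 of the 6 samples. Of these genes, 2872 (37%) were called higher and 2571 (33.1%) lower in NPCs at an adjusted p under 0.05, or 70.2% in either direction. In this test 4 of the 5 members took part and all 4 were called higher, but Meis1, Meis2 and Meis3 passed the filter only through their NPC samples, so that no weight rests on this count. Pbx3, which stayed under 1 RPKM in all samples, was not tested there. On the recovered reads, an alternative chosen after seeing the data, all 5 members had at least 22 reads in every library, and all 5 were called higher by limma voom, as were 46% of 13211 genes, while 27.9% were called lower and 73.9% in either direction. The median log2 difference over all genes was 0.38 on reads and 0.08 with median-of-ratios scaling, and each of the 5 members lay above it in both.

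Meis1, a Hox cofactor known from leukaemia and blood stem cells, was at 0.00696, 0.00831 and 0.00934 RPKM in the ESC samples, from 33, 39 and 40 reads. In the NPC samples it was at 1.43, 1.34 and 1.33 RPKM, from 6001, 5096 and 5966 reads. The ESC samples were thus below those of the other members, and the groups were far apart. The ratio of the means was 167, with a lowest ratio of 142 and a highest of 205 between single samples. In the limma fit over all genes above 0 in any sample, the difference was 1.23 on the log2(RPKM + 1) scale (SE 0.032, adjusted p = 3.6e-06). With the filter it was the same (SE 0.031, adjusted p = 2.6e-07, limma). Meis1 passed that filter through NPC samples only, so no weight rests on the latter p. This scale compresses changes of genes at such low RPKM. On the log2 scale of reads the difference was 7.37 (SE 0.17, adjusted p = 7.9e-07, limma voom).

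Meis2, a cofactor of Pax6 in neural cells, had the most reads of the Meis genes in every library. It was at 0.120, 0.106 and 0.0801 RPKM in ESCs, from 829, 728 and 500 reads, and at 1.86, 1.80 and 1.84 RPKM in NPCs, from 11364, 9931 and 12078 reads. ESC replicate 3 held its lowest value, the NPC samples were close to each other (SD 0.033), and the groups did not overlap. The ratio of the means was 17.9. Over all genes above 0 in any sample, the difference was 1.36 on the log2(RPKM + 1) scale (SE 0.039, adjusted p = 4.5e-06, limma). With the filter, which Meis2 too passed through NPC samples only, it was the same (SE 0.035, adjusted p = 2.7e-07, limma). No weight rests on the latter p. On the log2 scale of reads the difference was 4.18 (SE 0.17, adjusted p = 1.9e-06, limma voom).

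Meis3, known for its part in hindbrain induction in vertebrate embryos, was at 0.0849, 0.0831 and 0.0626 RPKM in ESCs, from 33, 32 and 22 reads. In NPCs it was at 4.32, 4.57 and 4.49 RPKM, from 1487, 1421 and 1656 reads. All NPC samples lay far above all ESC samples. Its RPKM in NPCs exceeded that of Meis1 and Meis2, although its reads were the fewest of the Meis genes, because its span of 11.4 kb is shorter than the 139 kb of Meis1 and the 203 kb of Meis2. The ratio of the means was 58.0. Over all genes above 0 in any sample, the difference was 2.34 on the log2(RPKM + 1) scale (SE 0.044, adjusted p = 2.2e-06, limma). With the filter, which Meis3 too passed through NPC samples only, it was the same (SE 0.050, adjusted p = 1.9e-07, limma). No weight rests on the latter p. On the log2 scale of reads the difference was 5.84 (SE 0.17, adjusted p = 9e-07, limma voom).

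Pbx2, a broadly expressed partner of Hox and Meis proteins, was the member that ESCs already held at a clear level. It was at 8.78, 9.58 and 8.73 RPKM in ESCs, from 1834, 1982 and 1648 reads, and at 42.5, 44.9 and 45.4 RPKM in NPCs, from 7859, 7504 and 8990 reads. The groups did not overlap. The ratio of the means was 4.90, the smallest of the members. The difference was 2.17 on the log2(RPKM + 1) scale (SE 0.091, adjusted p = 2e-06, limma) and 2.29 on the log2 scale of reads (SE 0.11, adjusted p = 3e-06, limma voom). Its annotated span begins within the 3′ part of Gpsm3 on the same strand, and Gpsm3 itself was lower in NPCs, with 0.817, 0.716 and 1.13 RPKM against 1.73, 2.12 and 3.12 in ESCs.

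Pbx3, known for roles in hindbrain nuclei that control breathing and in the spinal cord, was at 0.0160, 0.0162 and 0.0148 RPKM in ESCs, from 110, 110 and 92 reads. In NPCs it was at 0.494, 0.446 and 0.459 RPKM, from 3007, 2453 and 2991 reads. The groups did not overlap, and its low RPKM in NPCs stood beside more reads than those of Meis3, spread over a span of 202 kb. The ratio of the means was 29.8. In the fit over the 18217 genes above 0 in any sample, of which 39.5% were called higher, 22.9% lower and 62.4% in either direction, its difference was 0.53 on the log2(RPKM + 1) scale (SE 0.015, adjusted p = 4.4e-06, limma), and on the log2 scale of reads it was 4.89 (SE 0.13, adjusted p = 7.9e-07, limma voom).

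**Figure D1:**
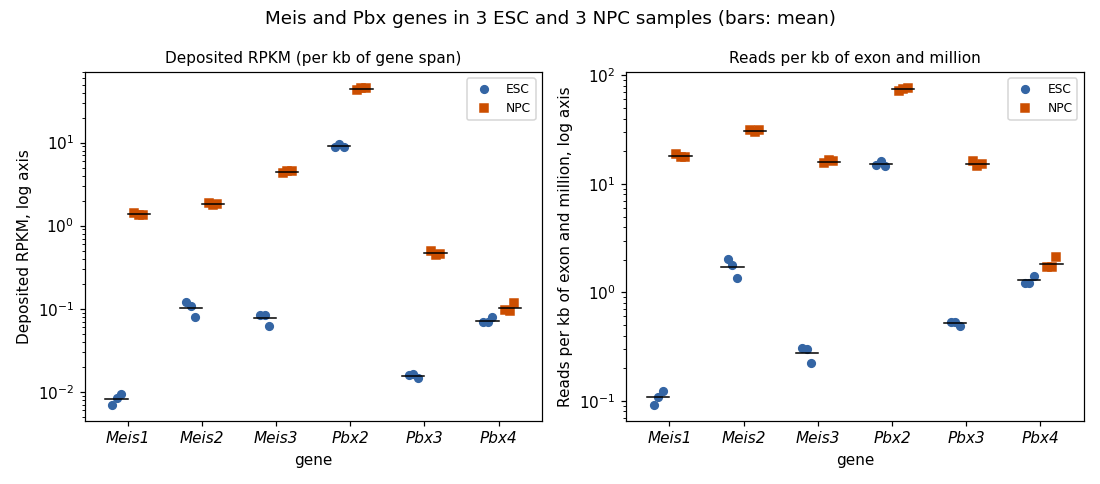
Levels of the 5 members and Pbx4 in the 3 ESC samples (circles) and the 3 NPC samples (squares), with a bar at each mean, as deposited RPKM (left) and as RPKM over the joined exons (right), both on log axes. Pbx3 lies at 0.467 RPKM on average in NPCs on the left, but at 15.4 on the exon scale, close to Meis3 at 16.0.

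Without ESC replicate 3, the differences on the log2(RPKM + 1) scale were 1.23 for Meis1, 1.35 for Meis2, 2.33 for Meis3 and 2.15 for Pbx2, and that of Pbx3 on the log2 scale of reads was 4.85. Each stayed past the threshold, in limma and in limma voom. Meis1, Meis2 and Meis3 were in the limma fits with the filter through NPC samples only. For these genes no weight rests on the threshold in those fits. Over all libraries left out in turn, the largest adjusted p was 5.6e-05 in limma with the filter and 7.6e-05 in limma voom, both for Pbx2, and 0.00014 for Pbx3 in limma over the genes above 0. Between these bulk samples, fewer cells of a type and less RNA per cell cannot be told apart. No label names a batch that ESC and NPC samples share, so effects of a batch and of the cell type cannot be told apart either. Meis1 overlaps the antisense genes Gm16140 and Gm16141, and Pbx3 overlaps the antisense gene C79798. Use of strand in the counting is not given in the sources used here, so reads from these pairs cannot be told apart. Meis1 also overlaps the annotated genes Gm37818, 2900018N21Rik and 2610001A08Rik on its own strand, where use of strand would not separate the reads.

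On the exon scale, the order of the members and Pbx4 in NPCs was Pbx2 at 74.6 ± 2.6, Meis2 at 30.9 ± 0.55, Meis1 at 18.1 ± 0.73, Meis3 at 16.0 ± 0.45, Pbx3 at 15.4 ± 0.83 and Pbx4 at 1.84 ± 0.23 RPKM over exons (SD, n = 3). Meis3 and Pbx3 were neighbours whose samples overlapped, since Pbx3 reached 16.3 and Meis3 began at 15.5. All other neighbours in this order were apart in every sample. In ESCs the order was Pbx2 at 15.2 ± 0.80, Meis2 at 1.72 ± 0.34, Pbx4 at 1.29 ± 0.11, Pbx3 at 0.517 ± 0.024, Meis3 at 0.277 ± 0.045 and Meis1 at 0.108 ± 0.016. There the samples of Meis2 and Pbx4 overlapped, so that their order was not resolved, and Pbx2 stood above all others. These levels assume that every annotated exon was counted and used. They also assume that no reads in introns were counted, as do all shares and sums on the exon scale. The study's methods name exon coverage, but the length behind the values was the span, so this assumption was not tested.

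The paralogs differed in how much each contributed. On the exon scale, Meis2 made up 81.5 ± 2.1% of the Meis sum in ESCs and 47.5 ± 0.51% in NPCs (SD, n = 3). Meis1 made up 5.35 ± 1.8% in ESCs and 27.8 ± 0.86% in NPCs, and Meis3 made up 13.2 ± 0.49% and 24.7 ± 0.95%. For each of these shares the groups did not overlap, and the two-sided exact permutation test gave p = 0.1, the smallest that 3 samples against 3 can reach. On deposited RPKM the same shares were 54.4%, 4.54% and 41.1% in ESCs and 23.9%, 17.8% and 58.2% in NPCs for Meis2, Meis1 and Meis3. The direction of each shift was the same on both scales, but the largest contributor in NPCs was Meis3 per span and Meis2 per exon.

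The filter of 1 RPKM let in many genes of the gene lists only through the group in which they were high, so that a count with this filter can favour one direction. The lists were to be counted with the filter. After seeing the data, a fit without it was put first for them, the limma fit over the 18217 genes above 0 in any sample, of which 39.5% were called higher and 22.9% lower, with a median difference of 0.01 on the log2(RPKM + 1) scale. This balance turned with quantile normalization, from 7200 higher and 4166 lower to 5362 higher and 5896 lower. Of 12 other TALE genes and Pbxip1, 10 were called higher and 1 lower without that normalization, with a median difference of 0.15. With it, 8 were called higher and 3 lower. With the filter, 7 were tested, of which 5 were called higher and 2 lower, but 4 were let in through NPC samples only. The fit over the genes above 0 has a like limit, since a gene at 0 in all samples of a group enters only through the other group. At 0 in all ESC samples were 2 endoderm markers and 1 gene of each other gene list but the pluripotency markers. At 0 in all NPC samples were 3 Hox genes with numbers 9 to 13, of which 1 was at 0 in all 6 samples. Counts in this fit can thus favour a direction too. The differences below come from the fit over the genes above 0 unless another is named. Pbx4, known mainly from testis, was below the filter, with 93, 92 and 97 reads in ESCs and 115, 103 and 151 in NPCs. It was called higher over the genes above 0 (0.04, adjusted p = 0.015, limma), a direction that turned with quantile normalization (-0.07, adjusted p = 0.014). Its call on reads (0.51, adjusted p = 0.027, limma voom) was lost with median-of-ratios scaling (0.22, adjusted p = 0.34) and when ESC replicate 1 or 2 or NPC replicate 2 or 3 was left out (adjusted p of up to 0.10).

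Pknox1 and Pknox2 encode the TALE proteins most like the Meis proteins. Pknox1 was at 0.655, 0.707 and 0.469 RPKM in ESCs and at 1.16, 1.03 and 1.01 in NPCs (difference 0.36, adjusted p = 0.0075, limma), a call that was lost with quantile normalization (0.11, adjusted p = 0.13). With the filter, quantile normalization turned the direction (-0.17, adjusted p = 0.035). Pknox2, below the filter, was at 0.0436, 0.0466 and 0.0308 RPKM in ESCs and at 0.159, 0.141 and 0.140 in NPCs. Tgif1 and Tgif2, repressors that bind sites like those of Meis proteins, moved in opposite directions. Tgif1 fell from 14.1, 14.3 and 13.6 RPKM to 8.70, 7.72 and 8.15 (difference -0.71, adjusted p = 0.00026, limma), and Tgif2 rose from 0.547, 0.642 and 0.244 to 1.22, 1.38 and 1.32 (difference 0.65, adjusted p = 0.0043, limma). Pbxip1, which encodes a protein that binds Pbx proteins and inhibits their binding to DNA, rose from a mean of 2.72 to 4.60 RPKM (difference 0.59, adjusted p = 0.00029, limma).

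Of the 6 Iroquois genes, TALE genes that pattern neural and other tissues, 4 were called higher and none lower over the genes above 0. Irx3 had 1, 1 and 2 reads in the ESC libraries and 537, 687 and 921 in the NPC libraries (difference 2.91 on the log2(RPKM + 1) scale, adjusted p = 3.6e-05, limma), and Irx1 had 0, 1 and 0 reads against 183, 212 and 277 (difference 1.19, adjusted p = 6.8e-05, limma). Irx5 lay below the filter, with 3, 3 and 2 reads in ESCs and 193, 247 and 363 in NPCs. Irx2 was at 2.05, 1.98 and 2.71 RPKM in ESCs and at 1.47, 1.56 and 1.83 in NPCs and was called lower with the filter (difference -0.31, adjusted p = 0.039, limma), but this call was lost in limma when ESC replicate 1 or any NPC replicate was left out, with an adjusted p of 0.050 to 0.13, and over all genes above 0 (adjusted p = 0.052). Over those it was called lower with a pseudocount of 0.1 (adjusted p = 0.046), with quantile normalization (0.021) and without ESC replicate 3 (0.043), so that the count of none lower is not firm. Irx6 had 0 reads in the ESC libraries and 13, 10 and 11 in the NPC libraries and was called higher over the genes above 0 (difference 0.08, adjusted p = 6.8e-05, limma). Irx4, with at most 9 reads in any library, was not called there (adjusted p = 0.066), except as higher without NPC replicate 2 (0.014). Mkx, a TALE gene outside this group, was at a mean of 0.0309 RPKM in ESCs and 0.145 in NPCs and was called higher over the genes above 0 (difference 0.15, adjusted p = 9.4e-05, limma).

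Hox proteins are the partners after which the cofactors are known. All 11 Hox genes described here with paralog numbers 1 to 4 were called higher over the genes above 0, with a median difference of 3.02 on the log2(RPKM + 1) scale beside 0.01 over all genes. With the filter 10 were tested and called higher, but all 10 had been let in through NPC samples only, so no weight rests on that count. The largest differences on this scale were those of Hoxa4, at 54.0, 49.1 and 48.3 RPKM in NPCs and at 0.0141, 0.114 and 0.0156 in ESCs, and of Hoxb4 (means 38.1 and 0.0730). All 11 genes with numbers 5 to 8 were called higher over the genes above 0 (median 2.20), and the 8 that passed the filter, all called higher, did so through NPC samples only. The call of Hoxc8, outside the filter, was lost with quantile normalization (adjusted p = 0.090). On the same scale Hoxa5 (mean 87.5 RPKM in NPCs), Hoxb5 (30.4) and Hoxb8 (17.9) differed most among them. Together these genes 1 to 4 summed to 141, 143 and 144 RPKM in NPCs, and the genes 5 to 8 to 162, 155 and 155.

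The posterior Hox genes, used in the trunk, tail and limb, were split. Of the 16 genes with numbers 9 to 13, 15 were above 0 in any sample, of which 4 were called higher and 8 lower, with a median difference of -0.02 beside 0.01 over all genes. With the filter 3 were tested, of which 2 were called higher and 1 lower. Among the calls over the genes above 0, that of Hoxa13 as higher (9, 0 and 0 reads in ESCs, 18, 11 and 9 in NPCs) was lost under 6 alternatives other than a limit of 2-fold (adjusted p of 0.065 to 0.33), and that of Hoxa10 as lower under 5 (0.054 to 0.083). Hoxa9 was called lower with quantile normalization only (0.017). Hoxb9 rose from 1.43, 1.32 and 1.14 to 10.8, 8.92 and 10.4 RPKM and Hoxb13 from 0.375, 0.350 and 0.571 to 4.57, 3.96 and 3.38, while Hoxc13 fell from 1.40, 1.56 and 1.84 to 0.0215, 0.00476 and 0.0161. Their 16 genes summed to 16.8, 13.9 and 14.7 RPKM in NPCs, and 12 of them stayed under 0.1 RPKM in every NPC sample. So the members were measured high in the same NPC samples as these Hox genes 1 to 8, in libraries in which most genes 9 to 13 were at or near 0.

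Retinoic acid had been added to the NPC cultures only. Of 18 genes of retinoic acid transport, turnover and response, 16 were called higher and 2 lower over the genes above 0, with a median difference of 0.86 beside 0.01 over all genes. The 11 that passed the filter were all called higher, but 7 of them passed through NPC samples only. The largest differences on the log2(RPKM + 1) scale were those of Cyp26b1 and Cyp26a1, which encode enzymes that degrade retinoic acid, and Crabp2, which encodes a carrier of it into the nucleus. Cyp26b1 was at 44.4, 42.4 and 41.0 RPKM in NPCs and at 0.0196, 0.0343 and 0.00722 in ESCs. Cyp26a1 was at 18.5, 19.8 and 22.0 against 0.0237, 0.0159 and 0.0262, and Crabp2 at 25.4, 26.6 and 29.9 against 0.368, 0.365 and 0.628. The genes called lower were Stra8 (means 0.0857 and 0.0113 RPKM in ESCs and NPCs) and Aldh1a3 (0.0732 and 0.00497).

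Of 15 genes known to be bound by Meis or Pbx proteins together with Hox or Pax6 proteins, 12 were called higher and 1 lower over the genes above 0, with a median difference of 1.33 beside 0.01 over all genes. Of the 11 that passed the filter, 9 did so through NPC samples only, and these were the 9 called higher, while 1 was called lower. This list shares 7 of its genes with the Hox genes 1 to 4. Its largest rises on the log2(RPKM + 1) scale were those of Hoxb4, Hoxa2 (13.4, 12.9 and 11.7 RPKM in NPCs) and Hoxb1 (10.8, 13.1 and 13.7), the latter both hindbrain genes with at most 2 reads in any ESC library. This order holds on that scale only. On the log2 scale of reads no order is given, since genes such as Dcx, Hoxb3 and Hoxa3 had at most 1 read in any ESC library and their differences there depend on the offset added to the reads. Ccnd1, which encodes cyclin D1, fell from 18.9, 20.5 and 11.0 to 7.76, 7.98 and 8.50 RPKM (difference -0.93, adjusted p = 0.017, limma). This call was lost with quantile normalization and without ESC replicate 1, NPC replicate 1 or NPC replicate 2 (adjusted p of 0.055 to 0.060). Epha2, a receptor gene used in the hindbrain, was at 4.78, 5.04 and 3.07 RPKM in ESCs and at 2.29, 2.86 and 3.28 in NPCs and did not pass (adjusted p = 0.080, limma). It passed as lower without ESC replicate 3 (adjusted p = 0.0075), with median-of-ratios scaling (0.045) and with quantile normalization (0.034). Dlx2, a forebrain gene, had at most 4 reads in any library and was called, as lower, only without ESC replicate 3 (0.018).

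Markers of other lineages were measured in the same samples, and their counts too are given over the genes above 0. With the filter, 4 endoderm, 3 mesoderm and 2 endothelium and blood markers were tested and all were called higher, but each had passed through NPC samples only, so no weight rests on these counts. Over the genes above 0 all 6 endoderm markers were called higher, and they summed to 0.0977, 0.115 and 0.0834 RPKM in ESCs and to 14.7, 16.2 and 15.7 in NPCs. On the exon scale they summed to 147, 151 and 153 in NPCs, above the 55.4, 62.0 and 58.0 of the neural progenitor markers, an order opposite to that per span. Gata4 was the highest of them on that scale in NPCs (109, 109 and 112). Afp and Ttr, which mark endoderm that has differentiated, were at 0 in the ESC samples and at most 0.0329 and 0.160 RPKM in NPCs, and the call of Afp was lost without ESC replicate 1 or 2 or NPC replicate 2 (adjusted p of 0.054 to 0.060). Of the 7 mesoderm markers, 5 were called higher and 2 lower, and they summed to 1.53, 1.61 and 1.28 RPKM in ESCs and to 26.8, 32.7 and 31.3 in NPCs, with Twist1 highest on the exon scale in NPCs (33.1). Their sums on the exon scale were 4.33, 4.57 and 3.76 in ESCs and 43.2, 50.7 and 48.5 in NPCs, a smaller rise. Those called lower were the markers of early mesoderm, T, from 0.964, 1.04 and 0.869 RPKM to 0.0164, 0.00909 and 0.0115, and Mixl1, from a mean of 0.159 to 0.0657, a call lost without ESC replicate 2 (adjusted p = 0.050). On reads the call of Mixl1 was also lost without ESC replicate 1 or 2 or NPC replicate 2 or 3 (adjusted p of 0.055 to 0.068, limma voom). Of the 6 endothelium and blood markers, 4 were called higher, Pecam1 was called lower (means 1.10 and 0.433 RPKM) and Gata1 was not called (0.0321 and 0.0229), except as lower with quantile normalization (adjusted p = 0.00096) and on reads with median-of-ratios scaling (0.043, limma voom). They summed to 1.35, 1.31 and 1.02 RPKM in ESCs and to 6.67, 6.79 and 7.16 in NPCs, with Kdr highest on the exon scale in NPCs (14.9). The sums on the exon scale were 19.5, 18.9 and 14.9 in ESCs and 40.1, 35.7 and 35.0 in NPCs, a smaller rise.

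Of the 6 markers of neurons, 4 were called higher and 2 lower over the genes above 0, and with the filter 1 of 3 tested was called higher and 2 lower. Dcx, a marker of young neurons, had 0 reads in the ESC libraries and 2457, 1735 and 2186 in the NPC libraries. Elavl3 was at a mean of 0.0250 RPKM in ESCs and 0.826 in NPCs, Elavl4 at 0.0112 and 0.132, and Neurod1 at 0.399 and 1.27. Over the genes above 0 these 4 calls were kept under every scaling, with a pseudocount of 0.1 and with any sample left out, but none reached 2-fold on the log2(RPKM + 1) scale. With the filter, which Neurod1 passed through NPC samples only, quantile normalization ended its call (0.69 and 0.18 before and after, adjusted p = 0.18). Tubb3 and Stmn2 were lower, and since these hold most of the summed RPKM, the sums were 11.5, 12.6 and 14.9 in ESCs and 7.93, 6.76 and 8.09 in NPCs. Tubb3 was the highest of the list in NPCs on the exon scale (23.5). Of the 4 neural crest markers, only Foxd3 passed the filter, through ESC samples, and was called lower. Over the genes above 0, Sox10 (means 0.00533 and 0.0848 RPKM in ESCs and NPCs) and Tfap2b (0 reads in the ESC libraries, 155, 135 and 187 in the NPC libraries) were called higher, and Foxd3 (7.65 and 0.830 RPKM) and Tfap2a (0.565 and 0.102) lower. They summed to 8.27, 8.77 and 7.62 RPKM in ESCs and to 1.23, 1.17 and 1.19 in NPCs, where Tfap2b and Foxd3 were highest on the exon scale (0.835 and 0.829). The sums on the exon scale were 10.6, 11.1 and 9.31 in ESCs and 2.44, 2.42 and 2.43 in NPCs, a smaller fall. Meis and Pbx genes are also used in mesoderm, endoderm and blood. The part of such cells in the levels of the members was not tested.

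The genes of the fit most like each member, by the root mean square difference in log2(RPKM + 1) over the 6 samples, were Cxxc4 (0.0092), Asic4 (0.013) and Rab32 (0.021) for Meis1 and Tac2 (0.034), Shisa7 (0.046) and Nudt10 (0.050) for Meis2. For Meis3 they were Amigo2 (0.036), Serpinf1 (0.044) and Stk26 (0.046), and for Pbx2 they were Sox12 (0.11), Cfl2 (0.15) and Cyr61 (0.23). Sox12, for example, was at 8.75, 10.1 and 8.36 RPKM in ESCs and at 49.1, 49.2 and 45.7 in NPCs. The likeness is in deposited RPKM, which depends on the span, and so is not one of transcript levels. Since the scale compresses low values, the ESC samples of Meis1, Meis2 and Meis3 weigh little in it. Asic4, for example, had a mean of 0.0025 RPKM in ESCs, beside 0.0082 for Meis1. Pbx3 stayed under the 1 RPKM that the filter asks for in 3 samples, which sets its distance to the genes let in, so no likeness is given for it.

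The position of the members relative to the nucleolus was read from the lists of nucleolus-associated domains (NADs), mapped by Nucleolar-DamID in lines of either cell type that carried the Dam fusions. To switch the fusions on, these cultures were given Shield1 (1 µM) and doxycycline (100 ng/ml) over 15 h. In this method a histone H2B with the Dam methyltransferase and a nucleolar localization signal marks DNA near the nucleolus, and the same fusion without the signal serves as control. Each list pools both experiments, so that no NAD has a replicate error. The ESC list held 1769 NADs and the NPC list 1447. Of 21259 genes of the RNAseq tables with a place in GENCODE M21 on the same chromosomes, 27.2% overlapped an ESC NAD and 21.7% an NPC NAD, and 14.5% overlapped both. Among the 5 members, 2 overlapped an ESC NAD and 3 an NPC NAD.

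Meis1 (chr11:18879817-19018985, minus strand, GRCm38) overlapped a NAD in both lists. The ESC NAD chr11:18900054-18999925 covered 71.8% of the gene but not its transcription start, and had a score of 0.0327 (median of the list 0.0256). The NPC NAD chr11:18699219-19399651 covered the whole gene and its start, and had a score of 0.0417 (median of the list 0.0413). Thus the gene lay within a longer NAD in the cells in which its RNA was higher.

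Meis2 (chr2:115863064-116065839, minus strand) overlapped no ESC NAD, the nearest of which, chr2:114400608-115699523, ended 164 kb away. In NPCs the whole gene lay within the NAD chr2:114399852-117200370, of 2801 kb and a score of 0.0389. That score was below the median of the list (0.0413) and ranked 850 of 1447. Such an overlap with the NPC list only was found for 7.16% of the genes, and 188 of the 513 tested among them (36.6%) were called higher in NPCs, beside 37% of all genes tested. Pbx3 (chr2:34171457-34373142, minus strand) had its start in a NAD in both lists. The ESC NAD chr2:34299598-34400659 covered 36.5% of it and the NPC NAD chr2:34199780-34799156 covered 86.0%, with scores of 0.0370 and 0.0267. The score of that NPC NAD ranked 1417 of 1447.

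Meis3 and Pbx2 lay outside NADs in both cell types. Meis3 (chr7:16175090-16186504, plus strand) was 314 kb from the nearest ESC NAD and 1475 kb from the nearest NPC NAD. Pbx2 (chr17:34591266-34597400, plus strand) was 891 kb from the nearest ESC NAD and 892 kb from the nearest NPC NAD. So among the 5 members, 2 overlapped NADs in both lists, 1 in the NPC list alone and 2 in neither. The shares over all 21259 genes were 14.5% in both lists, 7.16% in the NPC list alone and 65.7% in neither. These shares are not matched for gene length. Meis1, Meis2 and Pbx3 span 139, 203 and 202 kb, whereas Meis3 and Pbx2 span 11.4 and 6.1 kb. No test was made of these positions.

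**Figure D2:**
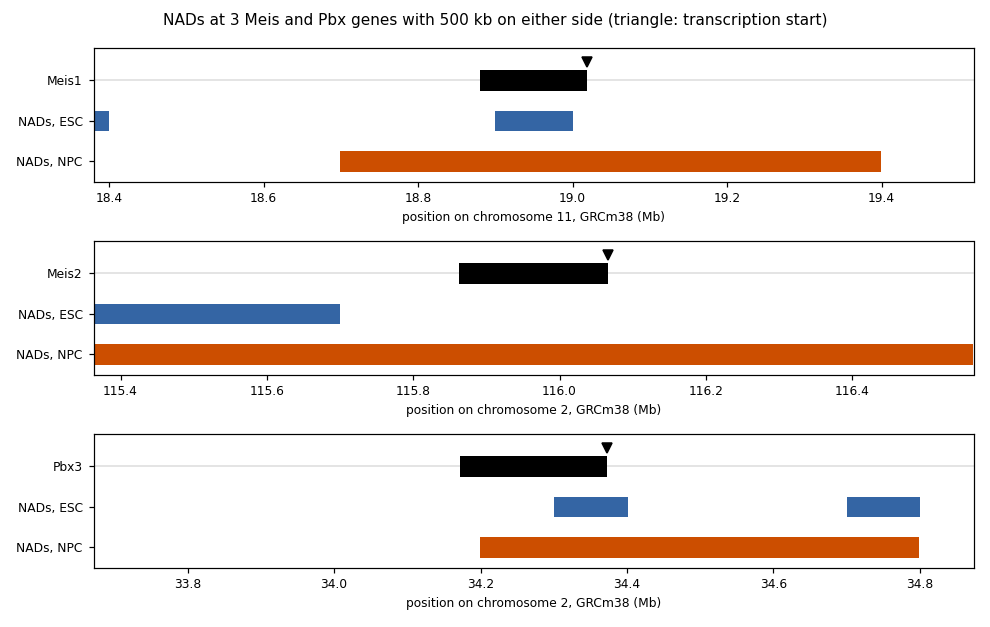
Positions of Meis1, Meis2 and Pbx3 (black bars, with a triangle at the transcription start) and of the NADs of the ESC list and the NPC list within 500 kb on either side, on GRCm38 in Mb. Meis2 lies whole within an NPC NAD and 164 kb from the nearest ESC NAD, while Meis1 and Pbx3 overlap a NAD in both lists.

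Promoter windows of RefSeq, from 250 bases before to 50 bases after the annotated start on GRCm38.p6, were found for 4 of the 5 members, Meis1, Meis2, Meis3 and Pbx2. They held 15, 13, 21 and 29 CG pairs, beside a median of 7 over 32851 windows, and 58.3%, 51.0%, 66.7% and 76.0% G and C, beside a median of 52.7%. Letters known from binding of TALE proteins and retinoic acid receptors were searched on both strands. TGACAG, a core of Meis sites, was in 19.2% of all windows, TGATNNAT, a core of joint Pbx and Hox sites, in 8.85% and AGGTCA, a core of receptor sites, in 16.3%, and none of these was in the 4 windows. This says only that these letters are not in these 300 bases. General promoter letters were searched as well. CCAAT was in 37.4% of all windows and in those of Meis1 and Meis2, and GGGCGG, the GC box, was in 35.7% and in that of Pbx2. The window of Meis3 held neither. A link of these letters to the levels of the members was not tested.

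The bases upstream of the start that lie in no GENCODE M21 exon are printed for Meis1 and Pbx2, the members with the lowest and the highest level in ESCs. They are given 5′ to 3′ on the strand of the gene, Meis1 from chr11:19018986-19019219 (minus strand) with CCAAT in capitals, and Pbx2 from chr17:34592009-34592258 (plus strand) with the GC box, here as CCGCCC on the other strand, in capitals. Counted from the RefSeq start, CCAAT begins at position -54 in Meis1, and the GC boxes begin at positions -142 and -83 in Pbx2. The bases of Pbx2 lie within its annotated gene, in an intron of a transcript that begins further upstream.
Meis1: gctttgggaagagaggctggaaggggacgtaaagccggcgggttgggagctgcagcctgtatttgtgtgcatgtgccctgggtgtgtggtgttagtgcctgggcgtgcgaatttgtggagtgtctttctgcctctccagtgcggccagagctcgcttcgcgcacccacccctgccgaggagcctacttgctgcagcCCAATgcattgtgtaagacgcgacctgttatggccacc
Pbx2: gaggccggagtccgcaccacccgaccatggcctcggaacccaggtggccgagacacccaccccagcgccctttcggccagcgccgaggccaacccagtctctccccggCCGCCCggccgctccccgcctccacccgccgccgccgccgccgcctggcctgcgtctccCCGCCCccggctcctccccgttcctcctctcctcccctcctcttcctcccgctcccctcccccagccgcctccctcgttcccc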

How the data were processed

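The authors deposited gene levels as RPKM for 3 ESC and 3 NPC samples. Per the study's methods, rRNA reads were removed with SortMeRNA, reads were trimmed with Trimmomatic and aligned to mm10 with STAR, and exon coverage was turned into RPKM. The submitters' processing notes also name Bowtie2 2.3.4.3, Subread 1.4.6-p4 and deepTools 3.2.1. The labels and the methods name different library kits, and how strand and reads with several alignments were treated, and with which annotation, is not given in these sources. The length in the RPKM was found from the values to be the gene span, whereas a length of the exons had been assumed when the tests were chosen. The authors deposited 1 score for each NAD, from peaks common to both DamID experiments.

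From these values, limma 3.58.1 in R 4.3.3 (eBayes with trend, Benjamini-Hochberg adjustment) compared log2(RPKM + 1) between NPCs and ESCs, and limma voom compared recovered reads of genes with at least 10 reads on average, a test chosen after seeing the data. Symbols on several lines of the tables were left out. Positions and exons came from GENCODE M21, promoters from RefSeq. Other steps used Python 3.11.15, numpy 2.4.6, pandas 2.3.3 and scipy 1.17.1, and were tested on simulated data. Groups came from the sample labels. Alternatives were the pseudocount, the filter, scaling, eBayes without trend, a limit of 2-fold, a replicate block and each sample left out. Named genes were the members, fixed gene lists with the 3 largest differences of each, and the 3 genes most like each member but Pbx3; Gpsm3, Epha2, Hoxa9, Hoxa10, Hoxa13, Hoxc8, CCAAT and GGGCGG were chosen after their values were seen. Gene lists were to be counted with the filter. The fit over all genes above 0 was put first for them, and for Meis1, Meis2 and Meis3, after seeing the data. Some genes of these lists, with the shares and sums that need them, are not reported here. The members and lists were chosen with earlier results of these data known.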

Additional observations from a re-analysis of the deposited data

How the results depend on the processing

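The alternatives for the members reused the same 6 samples, in which the groups did not overlap for any member. Of these alternatives, 108 of 109 kept the direction and the side of the threshold, and none turned a direction. The exception was Pbx3 with an added limit of 2-fold, since its difference over all genes above 0 was 0.53 on the log2(RPKM + 1) scale. Pbx3, outside the filter, was given in that fit under the other alternatives, added after seeing the data, with differences of 0.39 (quantile normalization) to 2.29 (pseudocount 0.1). Of 416 alternatives for counts in the gene lists with the filter, 366 stayed within 1.5 times and 50 did not. For the counts over the genes above 0, alternatives were added after seeing the data, of which 287 of 312 stayed within 1.5 times, and of the other 25, 14 had the limit of 2-fold. With the filter, 5443 genes were called (2872 higher, 2571 lower). Without it, 11366 were called over all genes above 0 (7200 higher, 4166 lower). Quantile normalization turned the balance in both fits, to 2640 higher and 2970 lower with the filter and 5362 higher and 5896 lower without it. With the filter and a limit of 2-fold, 2226 were called (1293 higher, 933 lower). The tests on reads, chosen after seeing the data, called 9768 (6081 higher, 3687 lower), and 9950 with median-of-ratios scaling (5307 higher, 4643 lower). On reads with a sample left out, 9485, 9333 and 11657 genes were called (6002, 5913 and 6835 higher) without ESC replicates 1, 2 and 3, and 8606, 8579 and 8549 (5480, 5458 and 5466 higher) without NPC replicates 1, 2 and 3. Without ESC replicate 3, 4822 were lower on reads. On log2(RPKM + 1) the counts with a sample left out ranged from 4568 to 6813, the latter without ESC replicate 3.

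Same-numbered ESC and NPC samples did not deviate together (correlations across genes of 0.11, -0.08 and 0.03), so their numbers were not taken to pair them. With a replicate block, 5161 genes were called (2735 higher, 2426 lower), or 9299 on reads (5853 higher, 3446 lower). The block changed no call of a member, whose largest adjusted p with it was 8e-05 on log2(RPKM + 1), for Pbx2 (limma) with the filter and 0.00063 for Pbx3 over the genes above 0. The calls of Pbx4 (adjusted p = 0.057) and Mixl1 (0.056) on reads were lost with the block (limma voom). Over the genes above 0, Irx2 was called lower with the block (adjusted p = 0.031, limma), as it was under 3 other alternatives.

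On the exon scale, the share of the Meis sum in NPCs minus that in ESCs was 22.4 percentage points for Meis1, -34.0 for Meis2 and 11.5 for Meis3, against 13.3, -30.4 and 17.1 on deposited RPKM, because the scales divide by different lengths. By the transcription start alone, 1 member lay in an ESC NAD, beside 23.7% of all genes. Meis1, Meis2 and Pbx3 lay in an NPC NAD by their start, beside 19.0% of all genes. Of NPC NADs with at least the median score, 1 member overlapped one, for which no share over all genes was counted. With 22 to 40 reads for Meis1 and Meis3 in ESC libraries, counting error limits their ratios.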
